A study of Mus musculus with 18 samples.

Results

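The eukaryotic translation initiation factors (eIFs) and elongation factors (eEFs), with the kinases and methyltransferases that carry the same gene symbols, were compared between immunoprecipitated RNA (IP) and whole brain RNA (WB) of transgenic mice. They were taken as every probe set annotated to a single gene symbol that begins with Eif1 to Eif6, Eef1 or Eef2, with Eif2s3x and Eif2s3y left out. This gave 150 probe sets of 56 genes, out of 45037 probe sets and 18193 genes measured. A further 8 probe sets that match these symbols together with another gene were left out, and Eif1, Eif2s1, Eif3g, Eif3j, Eif4g1 and Eef1g were not analysed here.

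Both groups came from transgenic mice (strain C57BL/6J X DBA/2J) with a BAC transgene, in which the regulatory sequence of the orexin (Hcrt) gene drives a flag-tagged rat poly(A)-binding protein (PABP) followed by eGFP. PABP binds the poly(A) tail of messenger RNA, so an antibody against the tag can recover RNA from cells that make the tagged protein. The IP group of 9 arrays held RNA released from anti-flag beads after formaldehyde perfusion, labelled as polyA RNA, and the WB group of 9 arrays held total RNA of whole brain. The labels give ages of 11 and 14 weeks without assigning them to samples, name no number of founder lines, and do not state whether every sample came from a different animal. The spread behind each p-value is therefore that between samples, and some of it may be technical. In such bulk RNA, fewer cells of a type and less RNA per cell cannot be told apart.

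Translation begins when eIF2 brings the initiator tRNA to the small ribosomal subunit, where eIF1, eIF1A, eIF3 and eIF5 help to select the start codon. The eIF4F complex, made of the cap-binding protein eIF4E, the RNA helicase eIF4A and the scaffold eIF4G, loads messenger RNA onto that subunit, and eIF4G also binds PABP, the protein used here as bait. eEF1A then delivers each aminoacyl-tRNA and eEF2 moves the ribosome along. In neurons, phosphorylation of eIF2, of eEF2 and of the 4E-binding proteins is known to control protein synthesis, also near synapses.

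Values are given as log2(intensity + 16), where the intensity is the deposited linear value, and a difference is IP minus WB on that scale, which understates the change of dim probe sets. A probe set is said to have risen or fallen in IP where its adjusted p was under 0.05 in limma over all 45037 probe sets. For a gene with several probe sets, the brightest is the one with the highest mean over the 18 arrays, and the suffix of an identifier tells how specific it is. Probe sets ending in _at alone were designed to be unique, those in _a_at match several transcripts of a gene, and those in _s_at or _x_at share all or some probes with other sequences.

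The arrays differed between the groups in ways that touch every value. Within a group, pairs of arrays correlated at 0.805 to 0.906 in IP and at 0.922 to 0.954 in WB (Pearson's r over all probe sets, which are not independent). The spiked hybridization controls averaged 13.7 to 15.3 in IP and 13.1 to 13.5 in WB (log2), although all arrays were scaled to 1 trimmed mean. Hcrt itself did not pass the test, with a difference of 0.21. Of 6 neuronal markers 2 rose and 4 fell, of 5 astrocyte markers 3 rose and 1 fell, and of 4 oligodendrocyte markers 1 rose and 2 fell. Of 5 microglial markers 1 rose and 2 fell, of 5 endothelial markers 4 fell, and of 4 red blood cell markers 3 fell. Among all genes, each read like the markers on its brightest probe set, 21.7% rose and 21.7% fell. The summed marker level spanned 15.9 to 16.8 in IP and 15.8 to 16.2 in WB for neurons, 14.9 to 15.9 and 14.0 to 14.5 for astrocytes, and 15.1 to 16.4 and 14.7 to 15.2 for oligodendrocytes. It spanned 11.9 to 13.0 in IP and 10.9 to 11.8 in WB for microglia, 9.52 to 10.4 and 10.7 to 11.0 for endothelium, and 8.22 to 10.3 and 12.3 to 14.0 for red blood cells. No marker was at 0 on any array, and the part of these differences in the results for the translation factors was not tested.

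Translation factor RNA was split between the groups. Of the 150 probe sets, 34 rose in IP (22.7%, against 14.2% of all probe sets) and 57 fell (38.0%, against 30.8%), while 59 did not pass the test in limma. The change was at least 2-fold in 17 of those that rose and 34 of those that fell. Among all 45037 probe sets it was so in 3475 that rose and 9862 that fell. All 9 IP arrays lay above all 9 WB arrays on 16 probe sets and below them on 19, where the shares over the whole array were 5.22% and 10.3%. The median difference was -0.32, beside -0.23 over all probe sets. Read by the brightest probe set alone, 22 of the 56 genes rose and 19 fell, where 21.7% of all genes rose and 21.7% fell, and the median difference was 0.14 against 0.00. Replicates were more variable in IP, with a median SD of 0.62 there and 0.25 in WB.

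**Figure D1:**
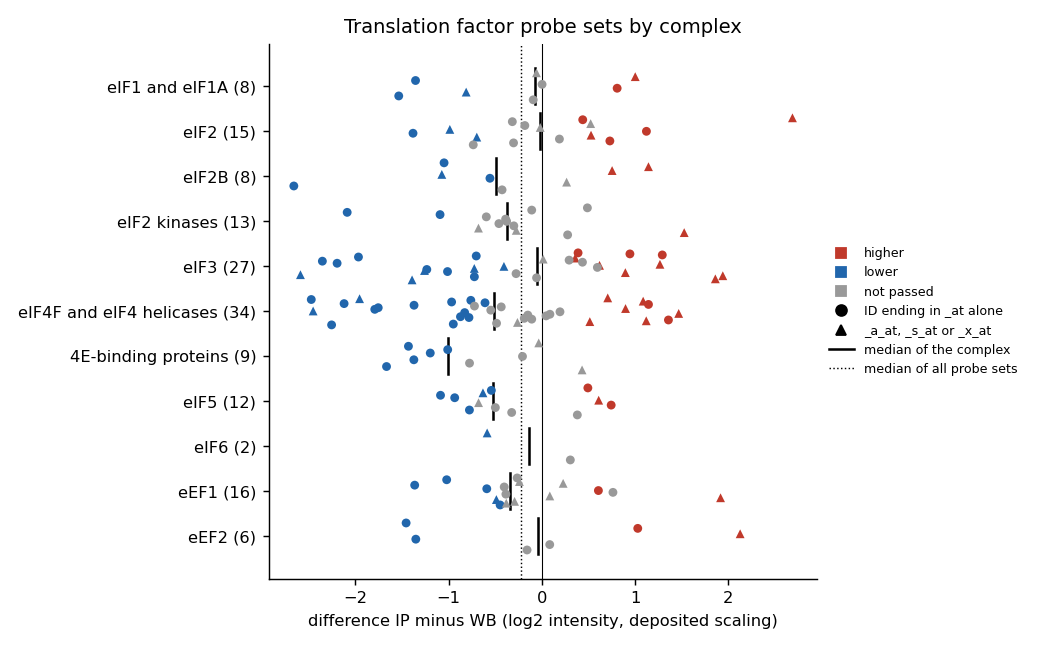
Difference between IP and WB (log2 intensity, horizontal axis) of the 150 probe sets, 1 point each, in rows by factor complex with the number of probe sets in parentheses. Red points rose and blue points fell in limma, grey points did not pass, circles are probe sets ending in _at alone, and black bars mark the median of a complex beside the dotted median of all probe sets. Each complex with more than 2 probe sets spans points on both sides of 0, and the 4E-binding proteins have no red point.

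The direction also depended on how the arrays were put on a common scale, so 3 other scalings were applied. Quantile normalization moved the median over all probe sets from -0.23 to 0.11, median centring moved it to 0.20 and scaling on the hybridization controls to -1.17. The factors moved with it, with medians of -0.15, 0.10 and -1.26. They had 33 rises and 48 falls under quantile normalization (40.7% of calls higher, against 52.3% over all probe sets), 48 and 27 under median centring (64% against 60.6%), and 6 and 108 with the hybridization controls (5.26% against 4.04%). As deposited, 37.4% of the factors' calls were higher, against 31.6% over all probe sets. Under all 4 scalings, 6 factor probe sets were called higher (4.0%, against 2.84% of all probe sets) and 27 lower (18%, the same share as over all probe sets). The 6 belong to Eif2a, Eif3l, Eif3m, Eif4g2, Eef1d and Eef2k, and all 6 have identifiers ending in _x_at or _s_at. Of the 27, 23 end in _at alone. Of the 34 rises, 7 had a difference below 0 under quantile normalization and 16 with the hybridization controls, and of the 57 falls 1 had a difference above 0 under median centring. Quantile normalization kept 25 of the 34 rises and 39 of the 57 falls, median centring 34 and 27, and the hybridization controls 6 and 57. In all, 58 calls were lost or turned under at least 1 of these scalings, and the size of a difference moved also where its call held. Of the 59 probe sets that did not pass as deposited, 8 were called higher and 7 lower under quantile normalization, 14 higher under median centring and 47 lower with the hybridization controls.

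**Figure D2:**
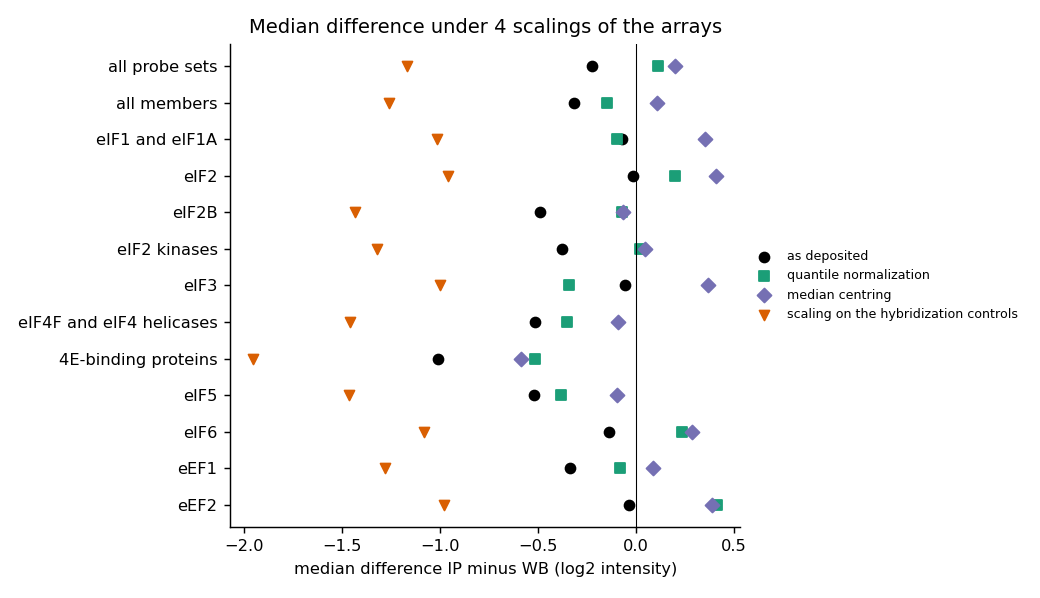
Median difference between IP and WB (log2 intensity, horizontal axis) for all probe sets, for all 150 translation factor probe sets and for each complex, under 4 scalings of the arrays marked by symbol and colour. The median of the factors runs from -1.26 with the hybridization controls to 0.10 with median centring, and those of the 4E-binding proteins, of eIF4F and the eIF4 helicases, of eIF5 and of eIF2B stay below 0 under each scaling.

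Among eIF1 and eIF1A, which scan for the start codon, 2 of 8 probe sets rose and 3 fell. These are 25.0% and 37.5%, against 14.2% and 30.8% of all probe sets. Eif1ax, the X-linked gene of eIF1A, rose on its brightest probe set (1437071_at). Its lowest, median and highest values were 11.0, 11.2 and 12.0 in IP and 10.3, 10.6 and 10.9 in WB, so that the groups did not overlap. The difference was 0.81 (SE 0.14, limma adjusted p = 6.03e-05), and it turned to -0.14 with scaling on the hybridization controls. The other 2 probe sets of Eif1ax fell, 1419736_a_at (-0.81) and 1449576_at (-1.53), the latter under all 4 scalings. Eif1ad, which encodes a protein with an eIF1A domain, had the largest fall of this complex among the brightest probe sets, on 1428542_at. Its IP arrays spread from 4.86 over 8.59 to 10.1 and its WB arrays from 9.23 over 9.40 to 9.78, for a difference of -1.36 (SE 0.44, limma adjusted p = 0.0143). The groups overlapped, its call was lost under median centring, and its other probe set differed by 0.00. Eif1a rose by 1.00 on 1424344_s_at (limma adjusted p = 0.000448), a call lost with the hybridization controls (0.058). The brightest probe set of Eif1a, 1424343_a_at, differed by -0.06 and did not pass. Eif1b, a close relative of Eif1, differed by -0.09 (95% confidence interval -0.36 to 0.17) and did not pass.

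The eIF2 group held Eif2s2, the beta subunit, together with Eif2a and Eif2d, which encode separate proteins that can bring tRNA to the ribosome without eIF2. Of its 15 probe sets 5 rose and 3 fell (33.3% and 20.0%, against 14.2% and 30.8% of all probe sets). The largest rise of all 150 was Eif2a on 1434452_x_at, with 11.4, 11.9 and 12.6 in IP and 8.83, 9.21 and 9.60 in WB. Every IP array was far above every WB array, and the difference of 2.69 (SE 0.15), or 6.44-fold, had an adjusted p of 8.22e-13 in limma. The other probe sets of Eif2a did not follow in size. Its 1460575_at rose by 0.44, a call lost when WB replicate 6 was left out, and 1445563_at differed by -0.32 and did not pass. Eif2s2 rose by 0.53 on its brightest probe set (1448820_a_at, limma adjusted p = 0.0023), with the other scalings giving -0.42 (quantile), 0.95 (median centring) and -0.41 (hybridization controls), each past the threshold. Of its other 5 probe sets, 1417713_at rose by 0.73, 1456617_a_at fell by 0.70 with no overlap of the groups, and 3 did not pass. Eif2d had 1 probe set that rose (1437720_at, by 1.12, a call lost without IP replicate 2 or without WB replicate 6) and 2 that fell (-0.99 and -1.38), while its brightest did not pass. Scaling on the hybridization controls lost that rise, and quantile normalization and median centring lost both falls.

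The 5 subunits of eIF2B, the exchange factor that reloads eIF2 with GTP and whose mutations cause a white matter disease, moved apart. Eif2b5, the catalytic epsilon subunit, had the largest fall of the 150 probe sets. Its IP arrays ran from 5.86 over 6.78 to 8.55, and its WB arrays from 9.39 over 9.62 to 9.80. The groups did not overlap, and the IP arrays spread far more widely than the WB arrays. The difference was -2.66 (SE 0.31), or 6.32-fold, with an adjusted p of 1.38e-07 in limma, and it held under all 4 scalings. Its second probe set, 1445908_at, differed by -0.43 and did not pass. Eif2b2, the beta subunit, rose by 1.14 on 1434538_x_at (10.5, 10.9 and 11.5 in IP against 9.44, 9.77 and 10.1 in WB, limma adjusted p = 1.1e-06) and by 0.75 on 1451136_a_at, both without overlap, and fell by 1.07 on 1437428_x_at. None of these 3 calls was made under all 4 scalings. Eif2b1 fell by 1.05 and Eif2b3 fell by 0.56, each lost under quantile normalization and median centring, and Eif2b4 did not pass, with a difference of 0.27.

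The 4 eIF2 kinases phosphorylate eIF2 alpha in response to different stresses, and 10 of their 13 probe sets did not pass. Of the 13, 1 rose and 2 fell (7.69% and 15.4%, against 14.2% and 30.8% of all probe sets). Eif2ak4 (GCN2, the sensor of uncharged tRNA) rose on 1421389_a_at, where IP values were 8.67, 9.02 and 10.6 and WB values 7.38, 7.58 and 8.36. All IP arrays lay above all WB arrays, the difference was 1.53 (SE 0.25, limma adjusted p = 2.46e-05), and scaling on the hybridization controls left 0.58, which did not pass. The other probe set of Eif2ak4, 1443235_at, differed by 0.28 and did not pass. Eif2ak1 (HRI, the heme-regulated kinase) fell by 2.09 on 1421900_at (limma adjusted p = 0.00031) and fell by 1.09 on 1436006_at, while its brightest probe set differed by 0.49 and did not pass. The fall on 1436006_at was lost under quantile normalization (-0.655) and median centring (-0.668). Eif2ak2 (PKR, activated by double-stranded RNA) and Eif2ak3 (PERK, of the endoplasmic reticulum) did not pass on any of their 6 probe sets, which differed by -0.68 to -0.28.

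Of eIF3, the large scaffold that holds the small subunit and messenger RNA together, 11 subunits were measured on 27 probe sets. Of these 9 rose and 12 fell (33.3% and 44.4%, against 14.2% and 30.8% of all probe sets). Eif3l and Eif3m, subunits of the octamer, had the largest rises. Eif3l on 1437948_x_at had 10.4, 11.6 and 12.3 in IP and 8.96, 9.58 and 10.0 in WB, a difference of 1.94 (SE 0.25, limma adjusted p = 5.9e-07) without overlap. Eif3m on 1437189_x_at rose by 1.86 (SE 0.21, limma adjusted p = 6.46e-08), also without overlap. Both calls held under all 4 scalings, yet each gene fell on another probe set. Eif3l fell by 0.72 on 1423728_at, a call lost under quantile normalization and median centring. Eif3m fell by 1.39 on 1451076_s_at, under all 4 scalings, so that its 2 probe sets separated the groups fully in opposite directions.

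Eif3k, a small subunit with a single probe set, had the largest fall of eIF3. It measured 6.35, 7.64 and 9.10 in IP and 9.65, 10.4 and 10.6 in WB, a difference of -2.59 (SE 0.28), or 6.02-fold, with an adjusted p of 5.68e-08 in limma. Eif3b, a core subunit, fell by 1.97 with slight overlap (limma adjusted p = 2.97e-05). Eif3h fell on all 3 of its probe sets (-1.23, -1.26 and -1.01), and Eif3f fell by 0.73. Eif3b, Eif3k and the brightest probe set of Eif3h held under all 4 scalings, whereas Eif3f was lost under median centring.

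Several subunits were split within the gene, the largest of them, Eif3a, included. Its brightest probe set rose by 0.39 (limma adjusted p = 0.0369), a call that was lost when any of 10 arrays was left out (IP replicates 1, 2, 4, 5 and 6 and WB replicates 3, 4, 6, 7 and 9, with differences of 0.33 to 0.46 over all such fits) and that turned to -0.19 under quantile normalization and -0.56 with the hybridization controls. Its 1416661_at and 1416659_at rose by 0.94 and 1.29, the latter without overlap, and 1448425_at fell by 0.70. These rises of Eif3a were lost with the hybridization controls (0.002 and 0.349), and the fall was lost under median centring (-0.28). Eif3e rose by 1.27 and 0.62 on a pair of _x_at probe sets and fell by 0.41 on 1460432_a_at. Both rises were lost with the hybridization controls (0.32 and -0.32), and the smaller one also under quantile normalization (0.048). The fall of Eif3e was lost under median centring (0.017). Eif3c rose by 0.36 on 1456083_x_at, a direction that turned to -0.039 under quantile normalization and -0.59 with the hybridization controls, and fell by 2.35 on 1415858_at (limma adjusted p = 8.85e-06). Eif3i rose by 0.90 without overlap, but this became -0.12 under quantile normalization and -0.047 with the hybridization controls. Eif3d differed by 0.44 on its brightest probe set, which did not pass, and fell by 2.20 on 1416100_at without overlap.

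The eIF4 group was the largest, with 34 probe sets of 10 genes, of which 8 rose and 15 fell. Those shares were 23.5% and 44.1%, against 14.2% and 30.8% of all probe sets. Eif4e, the cap-binding protein and the limiting factor of cap-dependent initiation, gave opposite answers on its brightest pair. On 1423220_at IP arrays had 11.6, 11.9 and 12.6 and WB arrays 10.4, 10.9 and 11.0, with every IP array higher, and the difference was 1.14 (SE 0.13, limma adjusted p = 1.14e-07). On 1450908_at IP arrays had 8.33, 9.66 and 10.4 and WB arrays 10.6, 11.0 and 11.2, with every IP array lower, and the difference was -1.37 (SE 0.20, limma adjusted p = 4.98e-06). Both end in _at alone, so that neither was designed to match another sequence. The fall held under all 4 scalings, and the rise was 0.20 and did not pass with the hybridization controls. Its other 2 probe sets differed by -0.72 and -0.44 and did not pass.

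The helicase eIF4A is encoded by Eif4a1 and Eif4a2, the latter abundant in brain. Eif4a1 rose on 1434985_a_at, with 12.3, 12.7 and 13.1 in IP and 11.6, 12.1 and 12.2 in WB, by 0.71 (SE 0.13, limma adjusted p = 5.35e-05) without overlap. This rise was lost under quantile normalization (0.10) and turned to -0.24 with the hybridization controls. Its other probe sets, 1430980_a_at (-1.96) and 1427058_at (-2.47), fell without overlap and under all 4 scalings. Eif4a2, measured on 1450934_at alone, had 12.0, 12.7 and 13.0 in IP and 13.2, 13.4 and 13.6 in WB. Every IP array was lower, and the difference was -0.76 (SE 0.12, limma adjusted p = 8.05e-06). Quantile normalization gave -1.63 and the hybridization controls -1.70, both past the threshold, and median centring left -0.34, which did not pass. Eif4a3, the helicase of the exon junction complex, rose by 1.09 on a dim probe set (limma adjusted p = 0.00838), a call lost with the hybridization controls.

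The scaffold proteins differed from one another. Eif4g2 (DAP5, which lacks the cap-binding region and serves cap-independent initiation) rose on 1452758_s_at, its brightest probe set, with 14.9, 15.4 and 15.8 in IP and 13.7, 13.9 and 14.1 in WB. The groups were fully separated, and the difference of 1.47 (SE 0.12, limma adjusted p = 6.62e-10) held under all 4 scalings, with 0.36 under quantile normalization. Its next 3 probe sets differed by 0.09, -0.15 and 0.04 and did not pass, and the dimmest, 1428363_at, fell by 0.87, a call lost in 10 of the 18 fits without 1 array (IP replicates 5, 6, 7 and 9 and WB replicates 3, 4, 6, 7, 8 and 9). Eif4g3, a further eIF4G scaffold, fell by 0.78 on its brightest probe set (lost under median centring), and rose by 1.36 on the dim 1440571_at, which was lost without IP replicate 8.

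**Figure D3:**
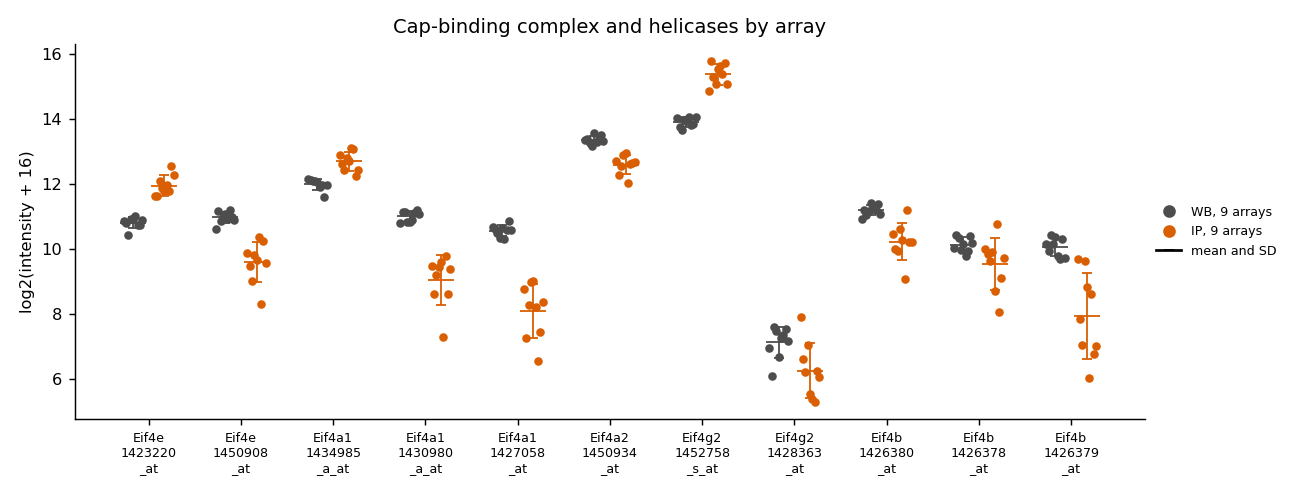
Level of 11 probe sets of eIF4 genes on each array (log2(intensity + 16), vertical axis), with WB arrays in grey, IP arrays in orange and bars for the mean and SD of 9 arrays. The probe sets 1423220_at and 1450908_at of Eif4e separate the groups in opposite directions, as do 1434985_a_at and the other 2 probe sets of Eif4a1, while all 3 of Eif4b are lower in IP.

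Eif4b, the RNA-binding partner that stimulates the helicase, fell on all 3 of its probe sets, with differences of -0.97 (limma adjusted p = 0.000148), -0.61 and -2.12. The middle value, from 1426378_at, was just past the threshold (limma adjusted p = 0.0497) and was lost in 13 of the 18 fits without 1 array (IP replicates 3, 5, 7, 8 and 9 and all WB replicates but 6), whereas the other 2 held under all 4 scalings. Eif4h, a related stimulator, rose on 1438554_x_at by 1.12 and on 1416941_s_at by 0.51, and fell on 1442942_at (-2.25) and 1445746_at (-0.95). The rise on 1416941_s_at was -0.43 with the hybridization controls, the fall on 1445746_at was lost without IP replicate 5, 6 or 8, and of these 4 calls that on 1442942_at alone was made under all 4 scalings. Eif4e2 (4EHP, a cap-binding protein that blocks initiation) fell on 1455108_at (-1.75), 1435804_at (-1.79) and 1421985_a_at (-2.45), each under all 4 scalings, and rose on 1435803_a_at by 0.90. On its brightest probe set, 1455108_at, IP values were 7.03, 8.61 and 9.96 and WB values 10.1, 10.6 and 11.1, without overlap. Eif4e3 did not pass on its brightest probe set (0.19) and fell by 0.83 on the other.

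The 4E-binding proteins, counted together with Eif4enif1, were the group with the lowest median, at -1.01. The products of Eif4ebp1 and Eif4ebp2 hold eIF4E away from eIF4G until mTOR phosphorylates them. None of the 9 probe sets of this group rose and 5 fell (0.0% and 55.6%, against 14.2% and 30.8% of all probe sets). Eif4ebp2, the main 4E-binding protein of brain, fell on 1437733_at from WB values of 8.27, 8.88 and 8.99 to IP values of 5.59, 7.71 and 8.92. The highest IP arrays lay within the WB range, and the difference was -1.20 (SE 0.32, limma adjusted p = 0.00306). Another 2 of its 5 probe sets fell (-1.37 and -1.67), all 3 held under all 4 scalings, and the remaining 2 differed by -0.21 and -0.78 and did not pass. Eif4ebp1 did not differ beyond its spread on its brightest probe set, which ends in _x_at, with 6.89, 7.87 and 8.12 in IP and 6.86, 7.79 and 8.40 in WB (difference -0.03, 95% confidence interval -0.57 to 0.50). It fell by 1.43 on 1417562_at (limma adjusted p = 0.00163), under all 4 scalings, and fell by 1.01 on 1417563_at, a call lost without IP replicate 8. Eif4enif1, which carries eIF4E into the nucleus, differed by 0.43 and did not pass (limma adjusted p = 0.0533). All of these probe sets but that of Eif4enif1 had means under 9, where the SD between IP arrays was large, with a median of 0.98 against 0.38 in WB.

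In the eIF5 group, 3 of 12 probe sets rose and 5 fell (25.0% and 41.7%, against 14.2% and 30.8% of all probe sets). Eif5, the GTPase activator of eIF2, rose by 0.49 on its brightest probe set (1415723_at, limma adjusted p = 0.000976) and fell on each of the other 4 (-1.09 to -0.54). The rise became a fall, past the threshold, under quantile normalization (-0.26) and with the hybridization controls (-0.45), and the fall on 1454663_at held under all 4 scalings. Eif5a, which relieves stalled ribosomes and carries the rare amino acid hypusine, had 11.9, 13.1 and 13.4 in IP and 11.9, 12.3 and 12.6 in WB on 1451470_s_at. The lowest IP array lay inside the WB range, the difference was 0.61 (SE 0.16, limma adjusted p = 0.00341), and it was -0.11 under quantile normalization and -0.33 with the hybridization controls. On 1437859_x_at Eif5a differed by -0.68 and did not pass. Its paralogue Eif5a2 rose by 0.74 on 1434593_at (SE 0.15, limma adjusted p = 0.000229), with 9.98, 10.9 and 11.1 in IP and 9.63, 10.1 and 10.2 in WB. This difference was -0.20 with the hybridization controls. The other probe set of Eif5a2, 1438256_at, differed by -0.50 and did not pass. Eif5b, which joins the ribosomal subunits, had 7.68, 9.23 and 10.3 in IP and 9.71, 10.1 and 10.3 in WB. The groups overlapped, and its fall of 0.78 (limma adjusted p = 0.0293) was lost without IP replicate 3, 5 or 6 or WB replicate 5, and under quantile normalization (-0.57) and median centring (-0.35). Its other probe sets, 1434604_at and 1435592_at, differed by -0.32 and 0.38 and did not pass.

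Eif6, which keeps the large ribosomal subunit from joining too early, fell on 1427578_a_at, with 8.40, 8.96 and 9.37 in IP and 9.37, 9.54 and 9.73 in WB. The highest IP array and the lowest WB array nearly touched, and the difference was -0.59 (SE 0.15, limma adjusted p = 0.00274). The call was lost under quantile normalization and median centring, and a second, dim probe set differed by 0.31 and did not pass.

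Among the genes of eEF1 and its methyltransferases, 2 of 16 probe sets rose and 5 fell. These are 12.5% and 31.2%, close to the 14.2% and 30.8% of all probe sets. Eef1a1, the widely expressed eEF1A and among the most abundant messenger RNAs of most cells, had 12.7, 13.0 and 13.3 in IP and 12.9, 13.3 and 13.5 in WB. The groups overlapped and the difference of -0.27 (95% confidence interval -0.50 to -0.03) did not pass in limma (adjusted p = 0.0642). It fell by 1.16 under quantile normalization and fell by 1.21 with the hybridization controls. Eef1a2, the form of mature neurons and muscle, had 9.13, 10.1 and 10.9 in IP and 10.6, 11.0 and 11.7 in WB. It fell by 1.02 (SE 0.23, limma adjusted p = 0.000587), under all 4 scalings, although the highest IP arrays reached into the WB range.

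The exchange factor that recycles eEF1A is built from the products of Eef1b2, Eef1d and Eef1g. Eef1b2 spread widely in IP, with 11.2, 12.2 and 13.3 against 12.0, 12.1 and 12.5 in WB, and its difference of 0.09 (95% confidence interval -0.35 to 0.52) did not pass. It turned to a fall past the threshold under quantile normalization (-0.54) and with the hybridization controls (-0.86). Eef1d rose on 1439439_x_at, with 14.1, 14.5 and 15.1 in IP and 12.3, 12.6 and 12.7 in WB. All IP arrays lay more than 1 unit above all WB arrays, and the difference was 1.92 (SE 0.14, limma adjusted p = 4.65e-11), or 3.77-fold. The call held under all 4 scalings, but the difference was 0.93 under quantile normalization and 0.97 with the hybridization controls. Its 1449506_a_at fell by 0.49 (limma adjusted p = 0.00345), a call lost under median centring, and its other 2 probe sets differed by -0.29 and -0.38 and did not pass. Eef1e1, of the aminoacyl-tRNA synthetase complex, fell by 0.45, a call lost without WB replicate 6. It was also lost under quantile normalization (-0.19) and median centring (-0.024). The methyltransferase genes Eef1akmt1 and Eef1akmt2 fell on 1 probe set each (-1.36 and -0.59), and Eef1aknmt rose by 0.61, a call lost without IP replicate 9, WB replicate 2 or WB replicate 5. The fall of Eef1akmt1 was on the dim 1418386_at. Its other probe sets differed by -0.24 (the brightest), 0.23 and -0.40 and did not pass. The fall of Eef1akmt2 was lost under median centring (-0.17).

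Eef2, the translocase, and Eef2k, the calcium-dependent kinase that inhibits it, went opposite ways on their brightest probe sets. Eef2 fell on 1424736_at, with 9.82, 10.9 and 11.6 in IP and 12.0, 12.3 and 12.5 in WB. Every IP array lay below every WB array, and the difference of -1.46 (SE 0.17, limma adjusted p = 1.36e-07), or 2.74-fold, held under all 4 scalings. A dim second probe set of Eef2, 1440784_at, rose by 1.03, which was lost in 8 of the 18 fits without 1 array (IP replicates 3, 6, 7 and 8 and WB replicates 1, 3, 5 and 8). Eef2k rose on 1437829_s_at, with 12.4, 12.9 and 13.6 in IP and 10.6, 10.8 and 11.0 in WB. The groups were separated by more than 1 unit, and the difference of 2.13 (SE 0.14, limma adjusted p = 1.16e-11), or 4.36-fold, held under all 4 scalings. The much dimmer 1439860_at of Eef2k fell by 1.35 (limma adjusted p = 0.000444), also without overlap and under all 4 scalings, with 5.24, 6.68 and 7.43 in IP and 7.58, 7.92 and 8.35 in WB. Its remaining probe set differed by 0.08 and did not pass, nor did Eef2kmt (-0.16).

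**Figure D4:**
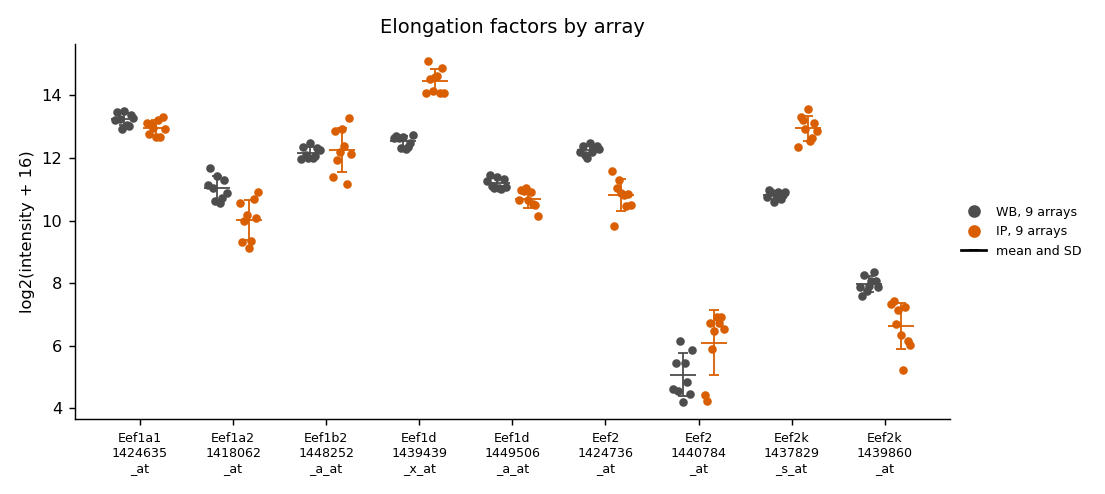
Level of 9 probe sets of elongation factor genes on each array (log2(intensity + 16), vertical axis), with WB arrays in grey, IP arrays in orange and bars for the mean and SD of 9 arrays. Eef2 on 1424736_at is lower and Eef1d on 1439439_x_at and Eef2k on 1437829_s_at are higher in every IP array than in every WB array, while Eef1a1 and Eef1b2 overlap.

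Disagreement between probe sets of a gene was common among the factors. Of the 40 genes with more than 1 probe set, 19 were called both higher and lower (47.5%, against 22.0% of 9010 such genes on the whole array), 7 higher only, 12 lower only and 2 not at all. The whole-array share is for all genes with more than 1 probe set, however few they have. The 19 were Eif1ax, Eif2d, Eif2s2, Eif2b2, Eif3a, Eif3c, Eif3e, Eif3l, Eif3m, Eif4a1, Eif4e, Eif4e2, Eif4g2, Eif4g3, Eif4h, Eif5, Eef1d, Eef2 and Eef2k. Their brightest probe set rose in 15 and fell in 3, Eif4e2, Eif4g3 and Eef2. The mean that picks it includes the IP arrays, which favours a probe set that is high there. Whole-array shares of this split, and of genes called higher only, lower only or not at all, are not given here. Eif3h and Eif4b were the genes of several probe sets that fell on all of them, and no such gene rose on all. Of the 16 genes with 1 probe set, 1 rose (Eif4a3) and 9 fell, where 13.2% of all genes with 1 probe set rose and 20.8% fell. When the probe sets of a gene were averaged before the fit, 9 of the 56 genes rose and 24 fell, against 12.5% and 29.0% of all genes.

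**Figure D5:**
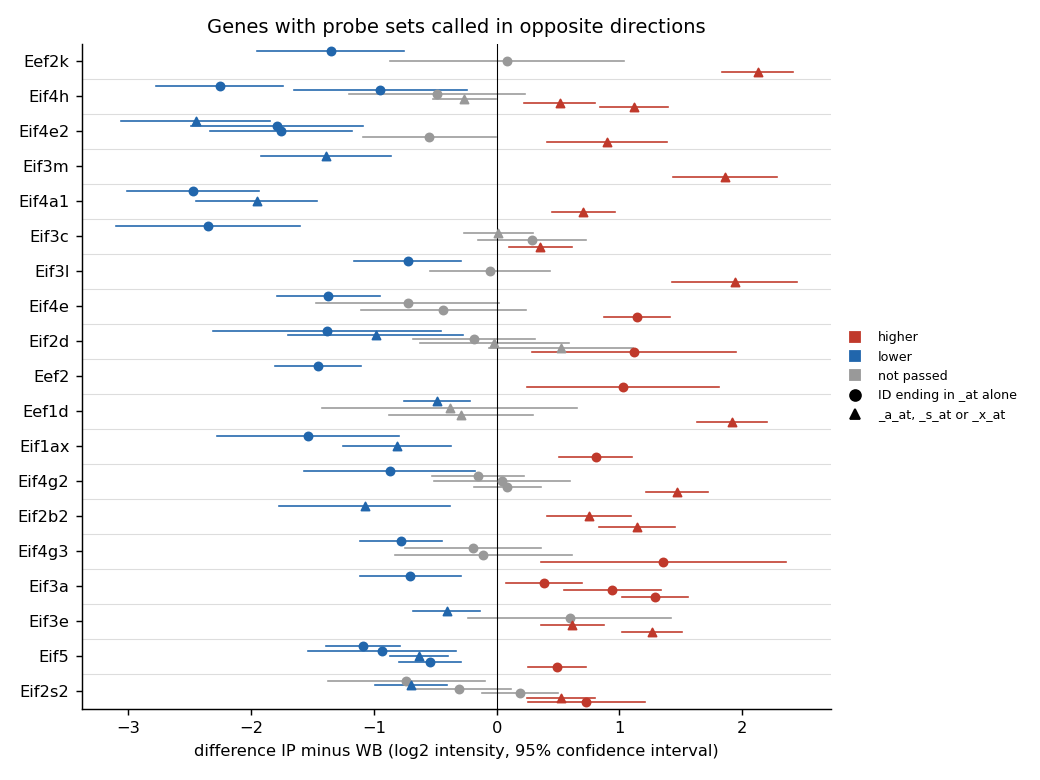
Difference between IP and WB (log2 intensity, horizontal axis) with its 95% confidence interval for every probe set of the 19 genes called both higher (red) and lower (blue) in limma, with grey for probe sets that did not pass. Circles end in _at alone and triangles in _a_at, _s_at or _x_at, and the genes are ordered from the widest separation, Eef2k with 2.13 and -1.35, to the narrowest, Eif2s2.

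The probe set that stands for a gene was chosen by its mean over both groups, which favours a probe set that is high in IP over another that is low there. Both other choices were added after the data were seen. With the choice made on the WB arrays alone, 11 of the 56 genes took another probe set, 17 rose and 28 fell, and the median difference was -0.42 instead of 0.14. Over all genes the same change gave 18.7% higher and 25.6% lower. Eif1ax, Eif3l, Eif3m and Eif4e then fell instead of rising (-0.81, -0.72, -1.39 and -1.37), Eif3c did not pass, and Eif2d, Eif2ak1, Eif3d, Eif4e3 and Eif4ebp1, which had not passed, fell. With the choice made on the IP arrays alone, 6 genes took another probe set, 23 rose and 14 fell, and the median was 0.31 (23.2% and 19.2% over all genes). Eif4e2 then rose by 0.90 instead of falling, and Eif1ad, Eif2b5, Eif4ebp2 and Eif5b did not pass. For Eif2a, Eif4g2, Eef1d and Eef2k the same probe set was the brightest in each group, so these choices could not change their rise. With all probe sets of a gene averaged, Eif2a rose by 0.94. Eif4g2 (0.115), Eef1d (0.19) and Eef2k (0.29) then did not pass in limma.

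The shares of rises and falls varied with the type of probe set and its brightness. Of the 99 factor probe sets ending in _at alone, 13 rose and 43 fell (13.1% and 43.4%, against 11.6% and 30.8% of all such probe sets). Of 19 ending in _x_at, 9 rose and 2 fell (47.4% and 10.5%, against 41.0% and 15.1%), while of 6 ending in _s_at 5 rose and 1 fell, against 24.5% and 28.7%. Of 26 ending in _a_at 7 rose and 11 fell (26.9% and 42.3%, against 16.3% and 40.0%). Of 17 factor probe sets with a mean of at least 12, 12 rose and 2 fell (70.6% and 11.8%, against 73.5% and 12.0% of all as bright). Of 36 with a mean of 10 to 12, 11 rose and 16 fell (30.6% and 44.4%), whereas rises outnumbered falls among all probe sets of that brightness (40.4% and 31.5%). Of 53 with a mean of 8 to 10, 7 rose and 20 fell (13.2% and 37.7%, against 14.1% and 39.7%). Of 44 with a mean under 8, 4 rose and 19 fell (9.09% and 43.2%, against 6.82% and 26.7%). Among the factor probe sets with a mean of at least 10, those ending in _at alone rose in 7 and fell in 11 of 26 (26.9% and 42.3%), the opposite balance to all such probe sets (40.7% and 30.4%). The others rose in 16 and fell in 7 of 27 (59.3% and 25.9%, against 57.9% and 22.5%). The part of shared probe sequence and of brightness in the rises of single genes was not tested.

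Close relatives were compared within arrays, by the difference in level between the brightest probe sets of 2 genes on the same array. A factor that scales a whole array cancels in this measure, though quantile normalization does not. Of 11 pairs set out, the 8 with both genes measured were tested by an exact two-sided permutation test (48620 ways to divide 18 arrays into 9 and 9), and the p-values were adjusted over the 8 by Benjamini-Hochberg. In 7 of them the 2 genes changed unequally between IP and WB. Eef1a1 changed by 0.76 (SE 0.23) more than Eef1a2 (adjusted p = 0.00812 in the exact permutation test), but by -0.11 after quantile normalization (adjusted p = 0.564). Relative to Eef1d, Eef1b2 changed by -1.83 (SE 0.16), Eif4a1 relative to Eif4a2 by 1.47 (SE 0.17) and Eif4e relative to Eif4e2 by 2.90 (SE 0.35), each with an adjusted p of 0.00011 in the exact permutation test, from the smallest p it can give. Eif4e changed by 0.95 (SE 0.27) relative to Eif4e3 and Eif1a by -0.86 (SE 0.26) relative to Eif1ax, both with an adjusted p of 0.00342 in the exact permutation test. After quantile normalization the first of these was 0.40 and did not pass (adjusted p = 0.16 in the exact permutation test). Eif4ebp1 changed by 1.16 (SE 0.42) relative to Eif4ebp2 (exact permutation test, adjusted p = 0.00954). Eif5a and Eif5a2 did not differ beyond their spread, at -0.13 (SE 0.26, adjusted p = 0.616 in the exact permutation test), but quantile normalization gave -0.88, past the threshold (adjusted p = 0.000905 in the same test).

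These pairs rest on the probe set taken for each gene. With all probe sets of a gene averaged, Eif4a1 changed by -0.48 relative to Eif4a2 and Eif1a by 0.99 relative to Eif1ax, both past the threshold in the reverse direction. Averaging also gave -0.03 for Eif4e against Eif4e3, 0.22 for Eif4ebp1 against Eif4ebp2 and -0.10 for Eef1b2 against Eef1d, none of which passed. Eif4e against Eif4e2 kept its direction, at 0.78, and Eef1a1 and Eef1a2 have 1 probe set each, so that their value did not move. With the probe set chosen on WB alone, Eif4e against Eif4e2 (0.38), Eif4e against Eif4e3 (-0.54), Eif1a against Eif1ax (0.76) and Eif4ebp1 against Eif4ebp2 (-0.23) did not pass, while Eif4a1 against Eif4a2 and Eef1b2 against Eef1d were measured on the same probe sets as before. With the choice on IP alone, Eif4e against Eif4e2 (0.25) and Eif4ebp1 against Eif4ebp2 (0.17) did not pass.

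The genes around the factors were read on their brightest probe sets, where 21.7% of all genes rose and 21.7% fell. Of 9 genes of termination and ribosome recycling, Gspt2, a form of the release factor eRF3, rose by 0.82 and Etf1 (eRF1, which reads stop codons) and Mcts2 fell (-1.34 and -1.47), while Gspt1, Abce1, Denr and 3 others did not pass in limma. Other probe sets went down, since Gspt1 fell on 5 of its 6, Abce1 on 2 of its 3 and Gspt2 on its other one. Of 11 measured regulators of eIF4F, Mknk2, a kinase of eIF4E, rose by 1.75, Pdcd4, an inhibitor of eIF4A, by 0.59 and Fmr1, a repressor of neuronal translation, by 0.71. Rptor, the mTORC1 subunit, fell by 1.04, as did Rps6kb2 (-1.42), the helicase gene Ddx3x (-0.77) and Cyfip2, which binds the Fmr1 protein (-1.31). Mtor did not pass (-0.19), and 2 of the 3 probe sets of Fmr1 fell. The medians of these lists were -0.16 and -0.19, against 0.00 over all genes.

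Of 9 genes that modify eIF2 or eIF5A, 2 rose and 3 fell in limma, with a median of 0.13. Dhps, which makes the first step of hypusine on eIF5A, rose by 2.92 (SE 0.13, 7.56-fold, limma adjusted p = 3.14e-14), a larger change than that of any factor, and fell on its other probe set. Metap2, a methionine aminopeptidase that binds eIF2, rose by 1.64. Impact, an inhibitor of GCN2, fell by 1.15, as did Nck1 (-1.54) and Ppp1r15b, a subunit of the eIF2 phosphatase (-0.63), whereas Dohh, the second enzyme of hypusine synthesis, differed by -0.32 and did not pass. None of the 9 measured mitochondrial translation factors rose, and 2 fell, Tufm (mitochondrial EF-Tu, -1.34) and Gfm1 (-0.94), where 21.7% of all genes rose and 21.7% fell. The other 7 did not pass in limma, and the median of that list was -0.28.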

How the data were processed

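Gene expression was measured on 18 arrays, 9 IP and 9 WB, from 5 ng of RNA with NuGEN WT-Ovation Pico amplification, per the labels' protocols. The deposited values are linear intensities made by the authors with MAS5, per the submitters' processing notes. The MAS5 version was not given in the sources used here. The mean of each array without its lowest and highest 2% was about 500.

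After adding 16 and taking log2, the 45037 probe sets left without 64 array controls were fitted in R 4.3.3 by limma 3.58.1 and statmod 1.5.0. Variances were moderated with a trend on intensity, and p-values were adjusted by Benjamini-Hochberg over all of them. No brightness filter was applied, so all 150 probe sets were tested. The procedure was tested on simulated data that had the same SD in both groups, whereas in these data the IP arrays varied more. Pairs were tested with scipy 1.17.1. Gene symbols came from the platform annotation, and all 150 probe sets matched the GRCm38.p6 gene table by Entrez ID, with 0 renamed.

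The factors, pairs and gene lists were chosen with earlier results of these data known. Array values over the replicates are given for main factors of each complex (among them Eef1a1, Eef1a2, Eef2, Eef2k, Eif4e, Eif4a1, Eif4a2 and the 4E-binding proteins) and for the largest called rise and fall of a complex on the brightest probe set. All genes called in opposite directions are named. Array values for second probe sets of Eif4e and Eef2k fall outside this rule and were chosen after they were seen. Alternatives were 2 pseudocounts, 3 scalings, 2 brightness filters, no trend, array weights, a replicate block, leaving out each array, unsuffixed identifiers and averaged probe sets. Those added later were leaving out 4 IP arrays together and choosing the probe set on WB or on IP alone. Arrays carry no read depth, and their number limits the precision.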

Additional observations from a re-analysis of the deposited data

Results flagged for a closer look

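On the brightest probe sets, 8 of 112 groups of 9 arrays held an array whose gap to its nearest neighbour exceeded Dixon's 95% critical value, where chance gives about 1 in 20. Eif5a2 stood out in both groups, with IP replicate 6 at 9.98 below the next array at 10.56 and WB replicate 1 at 9.63 below 10.04. In IP, replicate 6 was also the highest for Eif3f, at 11.48 against 10.81, which reached into the WB range, and replicate 9 was the highest for Eef1aknmt, at 9.91 against 8.93. The rise of Eef1aknmt did not pass in limma without that array. In WB, replicate 8 was lowest for Eif4a1, at 11.60 against 11.91, replicate 3 for Eif4e, at 10.42 against 10.74, and replicate 9 for Eif4ebp2, at 8.27 against 8.63. WB replicate 4 was highest for Eif4enif1, at 9.91 against 9.38. None of the other 5 genes' calls was lost when the outlying array was left out, and Eif4enif1 had no call as deposited.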

How the results depend on the processing

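Of the 41 genes called on the brightest probe set, pseudocounts of 1 and 64, array weights and the lower brightness filter kept 41, the higher brightness filter 40, no intensity trend 39, quantile normalization 29, median centring 31, the hybridization controls 25, averaged probe sets 22, and the probe set highest in WB or in IP 36 each. Leaving out each array in turn kept 37, and 15 held through the pseudocounts, scalings, trend, weights, replicate block and each array left out. Over these fits without 1 array the factors had 31 to 35 rises and 54 to 60 falls, with a median of -0.36 to -0.28. With the 4 IP arrays of highest hybridization controls left out together, chosen after the data were seen, 33 rose and 53 fell.

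The count of rises dropped to 13 without suffixed identifiers and to 6 with the hybridization controls, which gave 108 falls and a median of -1.26. Median centring gave 27 falls and a median of 0.10. Quantile normalization turned Eif2s2 to -0.42, Eif3a to -0.19, Eif3c to -0.039, Eif3i to -0.12, Eif5 to -0.26, Eif5a to -0.11 and Eef1a1 against Eef1a2 to -0.11, left 0.40 for Eif4e against Eif4e3 and carried Eif5a against Eif5a2 past the threshold at -0.88. The hybridization controls turned Eif1ax to -0.14, Eif2s2 to -0.41, Eif3a to -0.56, Eif3c to -0.59, Eif3i to -0.047, Eif4a1 to -0.24, Eif5 to -0.45, Eif5a to -0.33, Eif5a2 to -0.20 and Eef1aknmt to -0.34. Averaged probe sets turned Eif1ax to -0.51, Eif2s2 to -0.049, Eif3c to -0.42, Eif4a1 to -1.24, Eif4e to -0.35, Eif4g3 to 0.069, Eif4h to -0.39, Eif5 to -0.54 and Eif5a to -0.035, and gave -0.48 for Eif4a1 against Eif4a2, 0.99 for Eif1a against Eif1ax, -0.03 for Eif4e against Eif4e3, 0.22 for Eif4ebp1 against Eif4ebp2 and -0.10 for Eef1b2 against Eef1d. The probe set highest in WB gave -0.81 for Eif1ax, -0.72 for Eif3l, -1.39 for Eif3m and -1.37 for Eif4e, and 0.76 for Eif1a against Eif1ax, 0.38 for Eif4e against Eif4e2, -0.54 for Eif4e against Eif4e3 and -0.23 for Eif4ebp1 against Eif4ebp2. The probe set highest in IP gave 0.002 for Eif1ad, 0.90 for Eif4e2 and 0.38 for Eif5b, and 0.25 for Eif4e against Eif4e2 and 0.17 for Eif4ebp1 against Eif4ebp2. With averaged probe sets, a further 10 genes kept their direction but did not pass in limma. The rises left were Eif2b2 (0.27), Eif3m (0.23), Eif4g2 (0.115), Eif5a2 (0.12), Eef1aknmt (0.33), Eef1d (0.19) and Eef2k (0.29). The falls left were Eif5b (-0.24), Eif6 (-0.14) and Eef2 (-0.21). The cause of these changes was not tested.

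Arrays of the same replicate number correlated at -0.05 to 0.08 in their deviations from the group means, and 2 of 9 correlated best with their own number. With the number as a replicate block, 34 rose and 56 fell, and 40 of the 41 gene calls held. The call lost was that of Eef1e1 (limma adjusted p = 0.0571). Dim probe sets limit the reading, since the IP arrays varied more there.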
